A study of Mus musculus with 12 samples.

Results

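The deiodinases and the nuclear receptors of thyroid hormone were followed in lung RNA of 12 mice, measured on Affymetrix mouse expression arrays with 1 array per sample. The group consists of Dio1, Dio2 and Dio3, which encode the deiodinases, and Thra and Thrb, which encode the receptors. Its members are the probe sets to which the platform's annotation gives one of these symbols as the only symbol. Of 45037 probe sets on the array, 8 met this rule: 3 for Dio2, 3 for Thra, 1 for Dio1, 1 for Thrb and 0 for Dio3. The group was chosen by the rise of Dio2 after ventilation in these same arrays. The ventilation differences of Dio2 are therefore given as a description without a test.

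The animals were male C57BL/6 mice of 8 to 12 weeks, either wild type or nmMLCK-/-, called knockout here. The name stands for loss of nmMLCK, the non-muscle form of the myosin light chain kinase that Mylk encodes, and the labels give neither the construct nor the cells in which it was lost. Lungs of each genotype came from mice that breathed spontaneously (SB) or from mice given ventilator-induced lung injury (VILI) by 4 h of high tidal volume, which makes 4 groups of 3 arrays. The ventilator ran 65 breaths per min with the pressure at end-expiration at 0 cm H2O. The sample labels put the tidal volume at 40 ml/kg, whereas the series text puts it at 30 ml/kg. All VILI arrays come from the high tidal volume, so tidal volume, ventilation as such and the procedure around it cannot be told apart here. Values are log2 signals, and differences are given as log2 with a standard error (SE) from limma's fit of the 4 group means.

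Thyroid hormone leaves the thyroid gland mostly as the prohormone thyroxine (T4). Deiodinase 2, a selenoenzyme of the endoplasmic reticulum, turns T4 into the active hormone T3 inside the cell, deiodinase 1 does so at the plasma membrane of liver, kidney and thyroid, and deiodinase 3 inactivates both hormones. T3 binds the receptors encoded by Thra and Thrb, which sit on DNA with retinoid X receptors and exchange corepressors for coactivators. Dio2 transcription is raised by cyclic AMP, as in brown fat in the cold, and its protein is short-lived because it is ubiquitinated and destroyed by the proteasome.

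The Dio2 gene lies on mouse chromosome 12, at 90724552 to 90739038 of GRCm38.p6. Its promoter is shown because the gene is known to answer to cyclic AMP and because its transcript had the widest range of the group. The RefSeq window covers chr12:90738989-90739288 on the minus strand, from 250 bases before to 50 bases after the start, written 5′ to 3′. Capitals mark the cyclic AMP response element, TGACGTCA, and the TATA box, TATAAA.
Dio2 promoter: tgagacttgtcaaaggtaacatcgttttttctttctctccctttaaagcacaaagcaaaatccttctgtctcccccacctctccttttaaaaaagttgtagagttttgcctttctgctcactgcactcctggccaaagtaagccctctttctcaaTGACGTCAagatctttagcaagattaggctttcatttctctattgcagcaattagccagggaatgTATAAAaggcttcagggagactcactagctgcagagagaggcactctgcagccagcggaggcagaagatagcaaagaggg
The cyclic AMP response element spans bases -95 to -88 from the start, and the TATA box spans -30 to -25. Both strands were searched for 5 motifs. TGACGTCA was found in 588 of 32851 promoter windows of this length (1.79%) and TATAAA in 4473 (13.6%). The shorter core TGACG, which lies inside the full element and was counted with it, was in 6837 windows (20.8%). The AP-1 site TGANTCA was in 2565 windows (7.81%) and the NF-kB site in 2779 (8.46%), and the letters of neither were in the Dio2 window. The windows of Dio1, Dio3 and Thrb, the last with 2 starts in the table, did not hold TGACGTCA. These matches describe sequence only and show no binding.

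Array medians lay between 4.94 and 5.04, and arrays correlated at 0.981 to 0.998 over all probe sets. On the first 2 principal components, which held 46.5% and 15.7% of the variance, 2 arrays stood apart from the other SB arrays: replicate 3 of wild-type SB and replicate 2 of knockout SB. Results that rest on them are given with and without both. The 3 Mylk probe sets past the filter differed between the genotypes by -0.97 to -0.22 under SB and by -0.74 to -0.14 after VILI, none called by limma, and as their isoforms are not named in the files they do not check the genotype labels. The series text gives 3 animals per group, which limits the precision: the median SE was 0.17 for a difference between 2 groups and 0.24 for a difference of responses.

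Dio2 signal was low in every spontaneously breathing lung and high in every ventilated lung on probe set 1418937_at. In the wild type, the 3 SB arrays gave 3.59, 4.12 and 3.52 and the 3 VILI arrays gave 8.33, 8.57 and 8.53. In the knockout, the SB arrays gave 4.34, 2.83 and 3.62 and the VILI arrays gave 7.31, 7.36 and 7.03. The lowest VILI array, knockout replicate 3, stood well above the highest SB array, knockout replicate 1, so the groups did not overlap in either genotype.

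The group means on this probe set, in descending order, were 8.48 ± 0.13 (SD, n = 3) in wild-type VILI, 7.23 ± 0.17 in knockout VILI, 3.74 ± 0.33 in wild-type SB and 3.60 ± 0.76 in knockout SB. The last 2 did not differ beyond their spread. The rise was 4.73 (SE 0.32) in the wild type, or 26.6-fold, and 3.64 (SE 0.32) in the knockout, or 12.4-fold. Without the 2 SB arrays that stood apart it was 4.62 and 3.25. Among 12309 genes, each taken at its probe set of highest mean, the rise ranked 6 in the wild type and 14 in the knockout. The SB signals lie close to the filter level of 3.06, the 40th percentile of probe set means, and 1 of them lies under it. At such levels the summary of probe signals compresses differences, so the folds hold on this scale only. In whole lung, more cells of a type and more RNA per cell cannot be told apart.

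**Figure D1:**
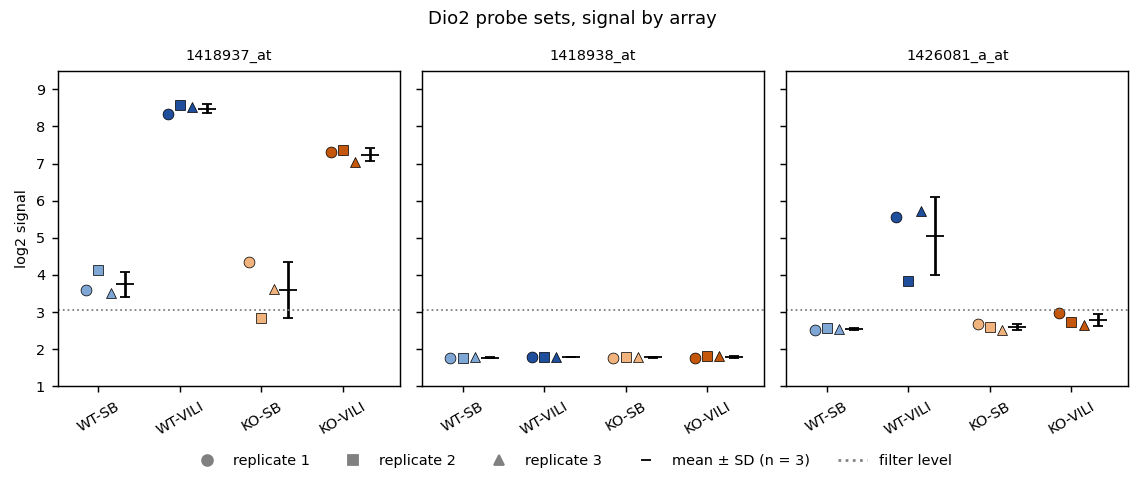
Log2 signal of the 3 Dio2 probe sets in each of the 12 arrays, by group (WT wild type, KO knockout), with points for arrays and dashes with whiskers for the mean and SD of 3. On 1418937_at the VILI arrays run from 7.03 to 8.57 and the SB arrays from 2.83 to 4.34, on 1426081_a_at wild-type VILI stands apart, and 1418938_at is flat.

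The other Dio2 probe sets did not repeat this picture in full. On 1426081_a_at, wild-type VILI gave 5.56, 3.84 and 5.72, against 2.51, 2.57 and 2.54 in wild-type SB. Knockout VILI gave 2.97, 2.74 and 2.66, against 2.67, 2.60 and 2.52 in knockout SB. Thus the wild-type VILI arrays stood above all others, while the knockout groups overlapped. The group means were 5.04 ± 1.05 (SD, n = 3) in wild-type VILI, 2.54 ± 0.03 in wild-type SB, 2.79 ± 0.16 in knockout VILI and 2.60 ± 0.07 in knockout SB. Outside wild-type VILI every array was under the filter level, and the probe set passed the filter only through wild-type VILI. Its values are therefore a description with no test, in the comparison of genotypes too. Wild-type VILI replicate 2, the lowest of its group here, was the highest on 1418937_at.

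The third probe set, 1418938_at, read 1.76 to 1.82 in all 12 arrays. Its range of 0.0612 compares with a median range of 0.0840 among the 18015 probe sets under the filter, and of 0.895 among those past it. The annotation ties it to the same sequence record as 1418937_at. A flat reading at this floor does not show absence of the transcript.

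Whether Dio2 differed between the genotypes was tested on 1418937_at alone. Under SB the knockout differed from the wild type by -0.15 (SE 0.32, 95% interval -0.85 to 0.55, limma adjusted p = 1). After VILI all 3 knockout arrays were below all 3 wild-type arrays, by -1.25 (SE 0.32, interval -1.95 to -0.54), which is 2.37-fold lower. This did not pass adjustment over the 27022 probe sets tested (limma adjusted p = 0.335). Over the alternative settings its adjusted p ran from 0.0477, in a fit of only these 2 groups, to 0.808, with wild-type VILI replicate 1 left out. The signals compared here also enter the rises by which the gene was chosen, so these intervals and p are not free of that choice. Few probe sets were called for genotype at all: 0.0444% under SB and 0.0703% after VILI.

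The difference between the responses of the genotypes to ventilation was -1.10 on 1418937_at (SE 0.45, interval -2.09 to -0.10, limma adjusted p = 0.974). Over the alternatives that p ran from 0.314 to 1. In limma's fit of all arrays 0 of 27022 probe sets were called for this difference, a share of 0%, with 1240 at an unadjusted p under 0.05. Without the 2 SB arrays that stood apart it was -1.37 (adjusted p = 0.314). The rises that enter this difference are those by which the gene was chosen, so its interval and p are not free of that choice.

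**Figure D2:**
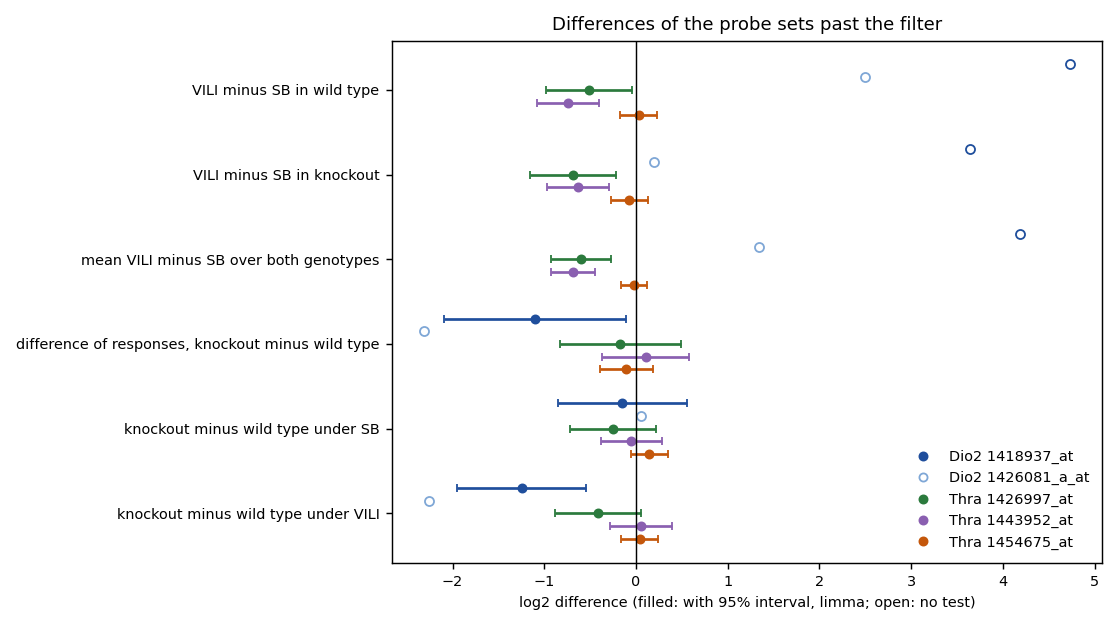
Log2 differences of the 5 probe sets past the filter in 6 comparisons. Filled points carry 95% intervals from limma, and open points have no test: the ventilation differences of Dio2, by which the gene was chosen, and all differences of 1426081_a_at, which passed the filter only through wild-type VILI. The filled difference of responses on 1418937_at is built from those same ventilation differences, so its interval is not free of the choice. The filled genotype differences of 1418937_at use the same signals, so their intervals are not free of it either. Dio2 lies at 4.73 and 3.64 on 1418937_at for ventilation and at -1.25 for genotype after VILI, while the Thra probe sets lie between -0.74 and 0.14.

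Thra, at 98740776 to 98769006 on chromosome 11 (GRCm38.p6), was the only receptor gene with signal past the filter, and its 3 probe sets did not agree. The gene gives a hormone-binding receptor and, by alternative splicing, a variant that does not bind T3. Probe set 1443952_at gave 9.13, 9.03 and 9.40 in wild-type SB and 8.58, 8.57 and 8.18 in wild-type VILI. In the knockout it gave 9.19, 9.12 and 9.09 under SB and 8.34, 8.40 and 8.76 after VILI. Every VILI array was below every SB array. The signal fell by 0.74 in the wild type (SE 0.15, limma adjusted p = 0.015) and by 0.63 in the knockout (SE 0.15, adjusted p = 0.0222). Averaged over both genotypes it fell by 0.69 (SE 0.11, adjusted p = 0.00157). The wild-type call was lost when VILI replicate 3 was left out (-0.61, adjusted p = 0.0501) and with only the groups compared in the fit (adjusted p = 0.0632). The knockout call was lost without any 1 of 3 arrays, with an adjusted p of up to 0.0809 without knockout VILI replicate 2. Over the alternatives these p ran from 0.0114 in the wild type and from 0.0159 in the knockout, and the averaged call held in all 19 that gave it. Without the 2 SB arrays that stood apart the differences were -0.63 (adjusted p = 0.0406) and -0.64 (adjusted p = 0.0377).

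Probe set 1426997_at was lower after VILI too. It gave 9.17, 9.51 and 9.20 in wild-type SB and 8.81, 8.99 and 8.54 in wild-type VILI. In the knockout it gave 9.20, 8.97 and 8.97 under SB and 7.94, 8.31 and 8.83 after VILI. The VILI arrays of each genotype were below its own SB arrays. Knockout VILI replicate 3 was the highest of its group. The difference was -0.51 (SE 0.21, limma adjusted p = 0.151) in the wild type and -0.68 (SE 0.21, adjusted p = 0.0525) in the knockout, neither called. Without knockout VILI replicate 3 the latter passed, at -0.92 and an adjusted p of 0.0175, and over the alternatives that p ran up to 0.139. Averaged over the genotypes the signal fell by 0.60 (SE 0.15, adjusted p = 0.0141), with adjusted p of 0.00335 to 0.0355 when each array was left out in turn.

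The third Thra probe set, 1454675_at, had the highest mean of the 3 and moved little. Its values were 8.83, 8.99 and 8.91 in wild-type SB, 8.98, 9.04 and 8.81 in wild-type VILI, 8.95, 9.13 and 9.10 in knockout SB, and 8.95, 9.003 and 8.99 in knockout VILI. All 4 groups overlapped. The VILI difference was 0.03 in the wild type (interval -0.17 to 0.23, limma adjusted p = 0.858) and -0.07 in the knockout (interval -0.28 to 0.13, adjusted p = 0.597). Averaged over the genotypes the interval was -0.17 to 0.12, which does not reach the fall read by the other probe sets. A direction for Thra as a gene therefore depends on which probe set is read, and the files do not say which transcripts each one covers.

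Of the 3 Thra probe sets, 1 was called in the wild type, 1 in the knockout and 2 for the average over genotypes. Among all probe sets tested the shares called were 10.3%, 15.8% and 30.7%. Counts of 1 or 2 among only 3 probe sets of 1 gene are not read further. Genotype differences of Thra were not called on any probe set. After VILI they were -0.42 (interval -0.88 to 0.05) on 1426997_at, 0.05 on 1443952_at and 0.04 on 1454675_at, and the differences of responses were -0.17, 0.10 and -0.11 in the same order.

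**Figure D3:**
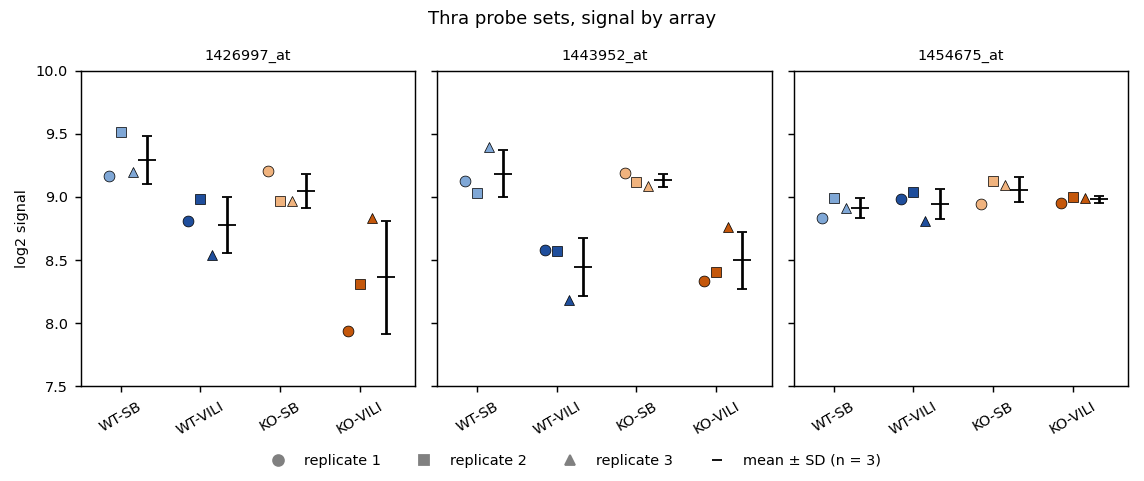
Log2 signal of the 3 Thra probe sets in each array, by group (WT wild type, KO knockout), with points for arrays and dashes with whiskers for the mean and SD of 3. On 1443952_at all VILI arrays (8.18 to 8.76) lie below all SB arrays (9.03 to 9.40), while on 1454675_at the 4 groups overlap.

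Thra shares 1075 bases at its end with Nr1d1, which encodes the nuclear receptor Rev-erb alpha of the circadian clock and is transcribed from the opposite strand. Nr1d1, read by 1426464_at, differed by 0.25 in the wild type (SE 0.32, limma adjusted p = 0.658) and by 0.10 in the knockout (adjusted p = 0.846). Its SB arrays in the wild type spread from 8.84 to 10.08, so a shift of the size seen for Thra was within their range.

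The remaining members gave readings at the floor of the arrays. Dio1 read 2.40 to 2.50 on 1417991_at in all 12 arrays, a range of 0.0922. Thrb, the receptor gene that dominates in liver and pituitary, read 1.70 to 1.75 on 1422202_at, a range of 0.0464. Dio1 lies on chromosome 4 at 107291465 to 107307168, and Thrb on chromosome 14 at 17659225 to 18040097. Dio3, on chromosome 12 at 110279230 to 110281097, had no probe set with its symbol alone. Its antisense neighbour Dio3os, which lies 1161 bases from it, read 2.15 to 2.21. Values at this floor have no order, and these readings do not show that the transcripts were absent.

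The genes whose pattern over the 12 arrays was most like that of Dio2 were found by the root mean square difference between array profiles, each centred on its mean, over 12308 genes. This is a description over arrays that share the same 4 groups. The nearest were Nfil3 (0.555), a repressor of the basic leucine zipper family, Prss22 (0.646), an airway serine protease, Apold1 (0.677), an endothelial early response gene, Fosl1 (0.748), an AP-1 subunit, and Has1 (0.864), a hyaluronan synthase. The next gene stood at 0.871 and the median gene at 2.20. Like Dio2, all 5 were higher in each VILI mean than in each SB mean, which the choice by likeness to Dio2 largely set. Nfil3 differed by 4.03 in the wild type and 4.10 in the knockout, and Prss22 by 3.86 and 4.13. Apold1 differed by 5.57 and 4.83, Fosl1 by 3.82 and 3.09, and Has1 by 4.58 and 3.28. Dio2, Apold1, Fosl1 and Has1 thus had the smaller rise in the knockout, Dio2 and Has1 by more than 1 log2 unit. For Has1 this leans on replicate 3 of knockout VILI, where the centred values were 2.54, 1.84 and -0.10 in replicate order. The pattern was not tested between genes.

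The choice of measure decided which genes came first: by Pearson distance, which ignores the size of the change, the first 5 were Rnf19a, Slc39a14, Snx18, Litaf and Mapk6, and 0 were shared. The promoter table held Nfil3, Apold1 and Has1 of the 5. Of the cyclic AMP motifs, the Has1 window has TGACGTCA at -83 to -76, and those of Nfil3 and Apold1 have TGACG only. Over all promoter windows the shares were 1.79% for TGACGTCA and 20.8% for TGACG. None of these windows held the AP-1 or NF-kB letters, and that of Apold1 held a TATA box at -32 to -27. Matches in so few windows are not read further.

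**Figure D4:**
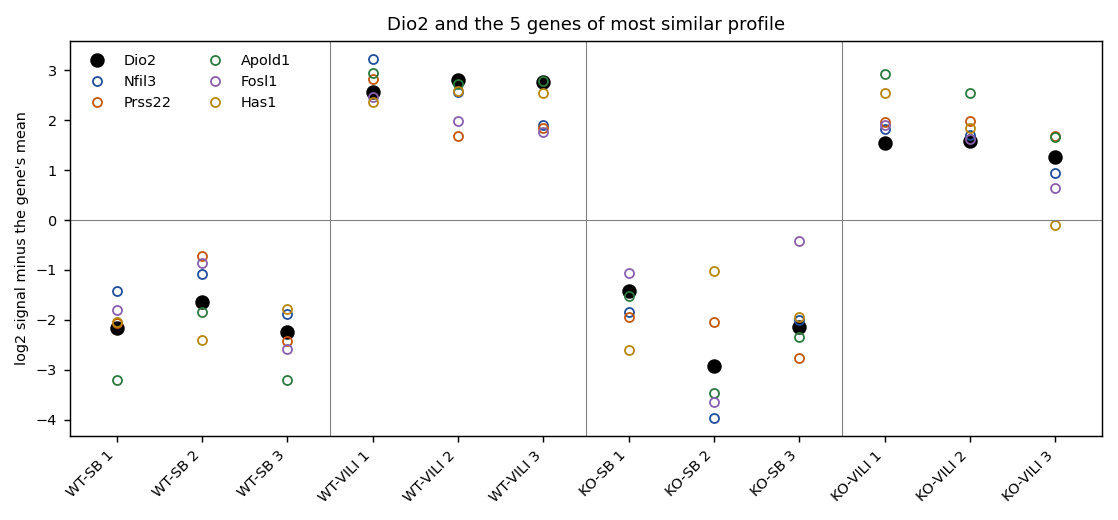
Log2 signal of Dio2 and the 5 genes with the smallest root mean square difference from it, each centred on its mean, over the 12 arrays. All 6 sets of points are low in SB and high in VILI, with the exception that Has1 stands near its mean in knockout VILI replicate 3 (-0.10).

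The other genes of the thyroid hormone pathway were taken from 7 lists with 90 genes. Of these, 81 had a probe set of their own and 70 passed the filter. In the wild type 7 rose and 2 fell after VILI, and in the knockout 6 rose and 3 fell. The median difference was 0.12 in the wild type and 0.04 in the knockout, against -0.05 and -0.05 over all 12309 genes. Among all genes, 5.13% were called higher and 7.25% lower in the wild type, and 6.96% and 10.8% in the knockout. These shares are the background for the counts of each list. With array medians set equal, the split over all probe sets in the wild type moved from 1360 higher and 1429 lower to 1697 and 1125.

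Carrier and binding genes showed no called change. Of 10 carriers for hormone entry, 5 were tested and 0 called, with medians of 0.14 in the wild type and 0.08 in the knockout. Slc7a5, an amino acid carrier chosen here after its values were seen, differed by 1.21 and 1.98 with an SE of 1.23. Of 7 genes that bind or dispose of the hormone, 3 were tested and 0 called. The plasma carriers Ttr and Alb and the cytosolic T3-binding protein Crym were under the filter. Iyd, which recovers iodide from iodotyrosines and was picked after its values were seen, differed by 0.21 in the wild type (limma adjusted p = 0.128) and by 0.01 in the knockout.

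Of 19 receptor partners, corepressors and coactivators, 16 were tested and 0 called in either genotype, with medians of -0.12 and 0.01. The partners Rxra and Rxrb differed by -0.33 and -0.13 in the wild type. Ppargc1a, a coactivator of mitochondrial genes chosen after its values were seen, stood at 1.24 in the wild type (limma adjusted p = 0.0525) and 0.65 in the knockout.

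Turnover of the deiodinase 2 protein was the list with the most genes called higher, 4 of 11 in the wild type and 3 of 11 in the knockout. The shares over all 12309 genes were 5.13% and 6.96%, and the list was not tested as a set. Its medians were 0.16 and 0.26. Wsb1, the substrate adaptor of a ubiquitin ligase that binds deiodinase 2, gave 11.75, 11.74 and 11.93 in wild-type SB and 12.44, 12.40 and 12.43 in wild-type VILI. The groups did not overlap. It rose by 0.62 (SE 0.08, limma adjusted p = 0.00232) in the wild type and by 0.33 (SE 0.08, adjusted p = 0.0243) in the knockout, the latter call being lost in 3 of 12 fits that left out an array (adjusted p up to 0.0843, without knockout SB replicate 2). Of the ubiquitin-conjugating enzymes of the endoplasmic reticulum, Ube2g2 rose by 0.52 and 0.55, and Ube2j1 by 0.51 and 0.40. Ube2j2 rose by 0.41 in the wild type and stood at 0.26 in the knockout (adjusted p = 0.0564). In the 12 fits that left out an array, the wild-type calls were lost in 4 for Ube2g2 (adjusted p up to 0.0831, without VILI replicate 2), in 2 for Ube2j1 (up to 0.0683, without VILI replicate 2) and in 2 for Ube2j2 (up to 0.0515, without SB replicate 1). The knockout calls were lost in 1 for Ube2g2 (0.055, without VILI replicate 2) and in 8 for Ube2j1 (up to 0.118, without SB replicate 2), and the other Ube2g2 probe set had the opposite sign in the knockout. Marchf6, another ligase for deiodinase 2, differed by -0.03 and -0.05, and the deubiquitinases Usp20 and Usp33, which rescue the enzyme, were not called.

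Deiodinases carry selenocysteine, and 11 genes of selenoprotein synthesis and selenium supply were tested. Lrp8, a receptor for the selenium carrier Selenop and for reelin, rose by 1.39 (SE 0.24, limma adjusted p = 0.00726) in the wild type and by 1.56 (SE 0.24, adjusted p = 0.0042) in the knockout. Eefsec, the elongation factor for selenocysteine, fell by 0.49 (adjusted p = 0.0304) and 0.62 (adjusted p = 0.0104). Its wild-type call was lost in 4 of 12 fits that left out an array, with an adjusted p of 0.111 when SB replicate 1 was out. Pstk, a kinase that acts on the selenocysteine transfer RNA, fell by 1.24 in the knockout (adjusted p = 0.0148, and 0.0603 without knockout VILI replicate 2) and stood at -0.74 in the wild type (adjusted p = 0.102). The medians of the list were 0.05 and -0.07.

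Genes that T3 is known to raise in 1 or more tissues showed no common direction. Of 12 tested, 1 rose in the wild type and 2 in the knockout, with medians of 0.01 and -0.02. Klf9, a widely used T3 target, differed by 0.16 in each genotype (SE 0.15). Hr, a corepressor gene that T3 raises in brain, stood at 0.15 in the wild type and rose by 1.00 in the knockout (SE 0.23, limma adjusted p = 0.0201, and 0.0537 without knockout SB replicate 2). Its 1 other probe set past the filter had the opposite sign in the knockout. The difference of its responses was 0.85 (adjusted p = 0.974). Mbp, a myelin gene also transcribed in blood cells, rose by 0.66 (adjusted p = 0.0047) and 0.59 (adjusted p = 0.00651). Of its 5 other probe sets past the filter, all had the same sign in the wild type and 2 in the knockout. Thrsp, a lipogenic gene, differed by -1.66 and -2.25 without a call.

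In the list of cyclic AMP signalling and CREB targets, 12 genes were tested, with medians of 0.38 and 0.20. Crem, whose short product represses cyclic AMP response elements, rose by 1.35 in the wild type (SE 0.28, limma adjusted p = 0.0163, lost in 3 of 12 fits that left out an array, with up to 0.0587 without VILI replicate 3) and stood at 0.14 in the knockout. The difference of its responses, -1.21 (SE 0.40, adjusted p = 0.974), was not called. Creb1 fell by 0.60 (adjusted p = 0.0448) and 0.64 (adjusted p = 0.0281), and these calls were lost in 9 and in 3 of 12 fits that left out an array (adjusted p up to 0.141 without wild-type VILI replicate 1 and up to 0.1 without knockout SB replicate 2).

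**Figure D5:**
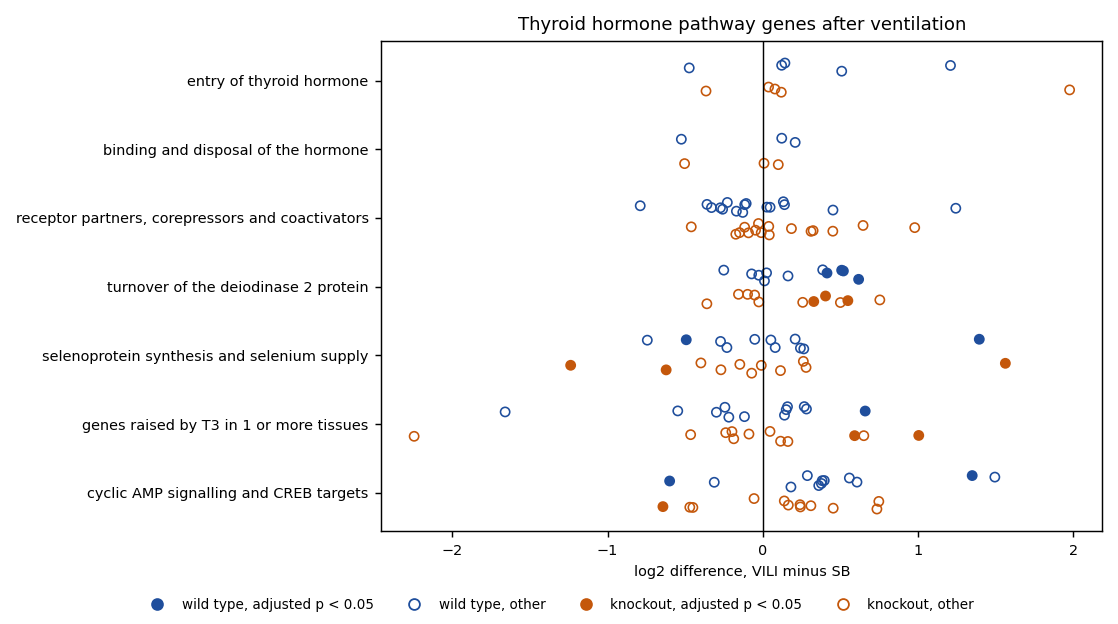
Log2 differences of VILI minus SB for the 70 tested genes of the 7 lists, in wild type and knockout, with filled points for genes called by limma at an adjusted p under 0.05 and open points for the others. The medians of the lists run from -0.12 to 0.38 in the wild type and from -0.07 to 0.26 in the knockout.

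The samples were also read for other tissues that could carry Dio2. All 10 lung markers passed the filter, with a summed linear signal of 250400 to 266800 in every group. The brightest of them set this sum, and Foxj1, a regulator of ciliated cells, had means of 9.14 in SB and 6.67 in VILI in the wild type and of 8.92 and 7.38 in the knockout. Of 6 thyroid markers 5 were measured, and the defining Tg and Tshr stayed between 2.20 and 2.41 in all 12 arrays. The summed thyroid signal was 151 to 162 in wild-type SB, 191 to 226 in wild-type VILI, 154 to 162 in knockout SB and 164 to 178 in knockout VILI. It moved with Slc26a4, an anion exchanger of thyroid and airway, which gave 4.91 to 6.02 in wild-type VILI and 2.83 to 3.65 in wild-type SB.

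Of 11 brown and white fat markers 9 were measured and 6 passed the filter. Their summed signal was 5260 to 8271 in wild-type SB, 4169 to 14160 in wild-type VILI, 5073 to 30820 in knockout SB and 3640 to 6673 in knockout VILI. The brightest of them, Fabp4, set most of this sum. Adipoq, Cox7a1 and Cox8b had lower means in VILI than in SB in both genotypes, and Cidea had higher ones. Fabp4 and Retn were higher in the wild type and lower in the knockout. Ucp1, which defines brown fat, stood at 10.01 in knockout SB replicate 1 and 5.07 in wild-type VILI replicate 1, and at 2.09 to 2.16 in the other arrays. Knockout SB replicate 1 had the highest Dio2 signal of the SB arrays, and without it the knockout rise was 4.01. Wild-type VILI replicate 1 had the lowest Dio2 signal of its group on 1418937_at (8.33). On 1426081_a_at it stood between the others (5.56, against 3.84 and 5.72).

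Neutrophil markers, 6 of 8 measured, summed to 30020 to 49810 in wild-type VILI and 34690 to 56960 in knockout VILI. They summed to 4082 to 5268 in knockout SB and to 6161, 8165 and 42080 in wild-type SB. Wild-type SB replicate 3, the array at 42080, had a Dio2 signal of 3.52 on 1418937_at, against 3.59 and 4.12 in the other arrays of its group. On 1426081_a_at it read 2.54, between the others at 2.51 and 2.57. Summed skeletal muscle signal, 6 of 6 markers measured, was 91.0 to 194 in the SB groups and 216 to 445 in the VILI groups. The sum moved with Acta1, a muscle actin, whose means were 5.40 and 7.51 in the wild type and 5.03 and 8.08 in the knockout, while the creatine kinase gene Ckm went from 5.85 to 5.13 and from 5.76 to 4.98. Heart muscle markers, 4 of 4 measured, summed to 15300 to 20220 in wild-type SB and 6545 to 25940 in wild-type VILI. In the knockout they summed to 11450 to 31930 under SB, highest in replicate 1, and to 11280 to 20100 after VILI. Macrophage markers, 5 of 5 measured, summed to 17880 to 21040 in wild-type SB and 21000 to 23700 in wild-type VILI. Knockout SB gave 16730 to 22490 and knockout VILI 18690 to 21160. The part of all these markers in the Dio2 values was not tested.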

How the data were processed

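Total RNA of 12 mouse lungs was measured on Affymetrix mouse expression arrays. The values deposited by the authors are log2 signals per probe set, with MAS5 and GCRMA named in the submitters' processing notes without their roles or versions; a build was not given in the sources used here. Such a summary sets the arrays' distributions close to each other and compresses dim signals, so a change of total RNA cannot be seen. Samples were grouped by their titles.

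Of 45037 probe sets, 34945 had 1 symbol in the platform's annotation, 932 several and 9160 none. Probe sets with a mean under the 40th percentile (log2 3.06) were left out, which kept 27022. All were fitted at once with lmFit and eBayes of limma 3.58.1 in R 4.3.3, as 4 group means over 12 arrays. Intervals are 95%, and a probe set was called at an adjusted p (Benjamini-Hochberg, 1 comparison at a time) under 0.05. Adjusted p-values in the text come from this fit. Statements that groups did or did not overlap are description only, given without the share of all probe sets for which the same held. For lists, a gene was read by its probe set of highest mean, which gave 12309 genes. Of each list, up to 4 called genes with the smallest p were named, and genes named beyond this rule were chosen after their values were seen. Summed marker signals are sums of 2 to the power of the log2 signal. The fit was tested on simulated data. Members, lists and tests were chosen with earlier results of these data known. The alternatives were other filters, normalizations and fits, 1 probe set per gene, a replicate block, and leaving out arrays. The labels number the replicates without saying whether the numbers pair animals, and the main fit used no pairing. Of 18 same-numbered pairs, 4 had deviations that correlated above 0.1. Deviations from a mean of 3 arrays cannot decide whether animals were paired. Gene positions and promoter windows are those of RefSeq for GRCm38.p6, and the promoter table held 4 of the 5 members, all but Thra.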

Additional observations from a re-analysis of the deposited data

How the results depend on the processing

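Over 1109 recomputed values, 991 kept their direction and, where a threshold applied, their side of it. Many could not change direction, since a difference stays the same under another filter or without an array of another group. The 1109 also hold counts and the Dio2 differences given without a test. The rises of Dio2 on 1418937_at kept their sign throughout, at 4.62 to 4.92 in the wild type and 3.25 to 4.01 in the knockout when each array was left out in turn. In a fit of only the groups compared, the Dio2 difference between genotypes after VILI was -1.25 and passed (limma adjusted p = 0.0477). It uses signals by which the gene was chosen. In such a fit the Thra 1443952_at difference in the wild type was -0.74 and did not pass (limma adjusted p = 0.0632). The lists held 3 higher and 0 lower genes in the wild type and 2 higher in the knockout. With the replicate block, Thra 1443952_at kept both calls (-0.74, limma adjusted p = 0.0382 in the wild type, 0.0489 in the knockout). The lists then held 0 lower genes in the wild type. The block rests on replicate numbers whose meaning the labels do not give (6 of 12 arrays correlated best with their own number). The filter at the 20th percentile, no filter, equal array medians and an intensity trend each left 1 lower list gene in the wild type. Without replicate 3 of wild-type SB and replicate 2 of knockout SB together, the genotype difference under SB was 0.12 for Dio2 1418937_at and 0.061 for Thra 1443952_at, the difference of responses of the latter was -0.0070, Nr1d1 in the wild type was -0.058, and 12 list genes were higher in the wild type. With array medians set equal, Thra 1454675_at averaged 0.019. By Pearson distance, 0 of the 5 genes most like Dio2 were shared. The cause of these changes was not tested. In the fits of probe sets, the calls ran from 1099 to 3349 in the wild type (2789 as reported), from 1677 to 5623 in the knockout (4279), from 6191 to 8542 for their average (8299), from 0 to 15 for the difference of responses (0), and between genotypes from 0 to 47 under SB (12) and from 2 to 50 after VILI (19).

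Leaving out each array in turn gave these ranges. For Dio2 1418937_at the genotype difference under SB ran from -0.52 to 0.23. For Dio2 1426081_a_at the wild-type difference ran from 2.49 to 3.10, the difference of responses from -2.91 to -2.24, and the genotype difference after VILI from -2.86 to -2.19, in the 10 fits where it passed the filter, as values with no test. For Thra 1443952_at the ranges were -0.82 to -0.61 in the wild type, -0.76 to -0.55 in the knockout, -0.026 to 0.19 for the difference of responses, -0.13 to 0.055 between genotypes under SB and -0.077 to 0.14 after VILI. For Thra 1454675_at they were -0.016 to 0.10 in the wild type, -0.050 to 0.012 on average and -0.028 to 0.086 between genotypes after VILI. For Thra 1426997_at they were -0.92 to -0.47 in the knockout and -0.41 to 0.041 for the difference of responses. Nr1d1 ran from -0.058 to 0.56 in the wild type and -0.027 to 0.20 in the knockout. The lists held 4 to 10 higher and 0 to 2 lower genes in the wild type and 3 to 8 higher and 1 to 5 lower in the knockout, and 3 to 5 of the genes most like Dio2 were shared. Signals under the filter level limit what can be said of Dio1, Thrb, Dio3os and 2 of the 3 Dio2 probe sets.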
